A study of Mus musculus with 6 samples.

Results

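Ribonuclease P is the nuclear enzyme that cuts the 5′ leader off precursor tRNAs. It is built around a catalytic RNA, Rpph1, on which a set of protein subunits assembles, and most of these proteins are shared with RNase MRP, a related particle with its own RNA, Rmrp, that acts in the maturation of ribosomal RNA. Because tRNAs and ribosomes are needed in every cell, the subunit genes are usually counted among housekeeping genes, and liver, which makes most plasma proteins, is a tissue in which both products are in heavy use. The 10 genes described here encode the protein subunits other than Rpp21, namely Rpp14, Rpp25, Rpp25l, Rpp30, Rpp38, Rpp40, Pop1, Pop4, Pop5 and Pop7. They were taken by gene name from the expression tables, in which all 10 were found among 47232 usable gene names, and all 10 passed the filter on low values that left 18619 genes for testing. Rpp25 did so at a level of a few reads and is therefore kept apart in several comparisons.

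Livers of 6 adult house mice (Mus musculus) were measured once each by stranded mRNA sequencing, with 3 mice in each of 2 groups that the study called genetic backgrounds. The laboratory group was 3 male C57BL/6 mice, an inbred strain, aged 17 to 18 weeks and killed on delivery. The wild group was 1 male (wild mouse 1) and 2 females (wild mice 2 and 3), outbred adults trapped alive at a pair of sites in Australia and then housed for 3 months under natural light. The labels name no treatment or engineered allele in any mouse, and the RNA came from fresh-frozen liver and not from fixed specimens. Strain, sex, housing and time since preparation varied between the groups, and perhaps age, and they cannot be told apart. The study gives a longer interval from preparation to sampling of the fixed tissue for all laboratory mice than for all wild mice. How long the frozen livers were stored before RNA extraction is not given in the sources used here. Sex was tried as a covariate, but the laboratory group held only males. The difference in that fit is therefore that of the 3 laboratory mice from wild mouse 1 alone, and it cannot separate sex from the rest. All positions below are on GRCm38.p6.

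FPKM and zFPKM were deposited for each gene. FPKM is the number of fragments scaled to transcript length and library size, and it allows genes to be compared with each other within a mouse. The score zFPKM centres log2 FPKM on a mode, and scales it by an SD, that were fitted to each mouse separately, and it was the scale of the main test. Wild mouse 1 had the highest mode, 2.51, followed by laboratory mouse 3 with 2.12, and laboratory mouse 1 the lowest, 0.491. On the second principal component of zFPKM, which held 32.5% of the variance, laboratory mouse 3 and wild mouse 1 stood at -48.5 and -52.0 while the other 4 mice lay between 17.5 and 33.7, so results are given with and without this pair. On the FPKM scale, the median log2(FPKM + 0.1) of the tested genes was -0.11, 0.15 and 0.36 in laboratory mice 1 to 3 and 0.73, 0.87 and 1.03 in wild mice 1 to 3, and the median over genes of the difference (laboratory less wild) was -0.47. A further fit set the median of each mouse to 0. In that fit the median over genes of the difference (laboratory less wild) was 0.274 and not 0. Single differences from that fit are to be read beside this value. They are given below for the members other than Rpp25 and for the other particle and mitochondrial RNase P genes. Of the 6 hepatocyte markers tested, 3 were called higher and 1 lower in laboratory mice on zFPKM, and their FPKM summed to 29980 to 41825 per laboratory mouse against 18809 to 20709 per wild mouse. Erythrocyte markers were higher in laboratory mice in 5 of 6 cases, with summed FPKM of 1340 to 5135 against 724 to 1581. Of the other markers, none of 5 for Kupffer cells, 5 for sinusoidal endothelium or 6 for proliferation was called, beside 1 of 5 biliary, 2 of 5 stellate cell and 1 of 6 lymphocyte markers, and none of these genes was listed at 0 in every mouse. The summed FPKM of the proliferation markers ran from 4.45 to 7.09 among laboratory mice and from 22.2 to 23.5 among wild mice. The part of these shifts in the results below was not tested.

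The subunit genes spanned a wide range of levels. Taking the geometric mean of FPKM over the 6 mice, Pop5 stood at 23.2 FPKM and Rpp25l at 19.2 FPKM, followed by Rpp40 at 7.39, Pop4 at 6.25, Pop7 at 4.43, Rpp30 at 3.16, Rpp14 at 2.83, Rpp38 at 2.69 and Pop1 at 1.58 FPKM. Only 3 of the 8 steps between neighbours in this order had the same direction in all 6 mice: Rpp25l above Rpp40, Pop7 above Rpp30, and Rpp38 above Pop1. Each of these gave p = 0.0312 in a two-sided exact sign-flip permutation test over 6 mice, the smallest value possible, and an adjusted p of 0.0833 over the 8 steps. The order and its neighbours were taken from these same values, so the p-values are descriptive and do not test the order. The other 5 pairs of neighbours were not separated beyond their spread between mice. Among the genes with any signal in a mouse, Pop5 stood above 87.7% to 91.0% and Pop1 above 50.01% to 56.6%. Pop1 was the lowest of the 9 genes in every mouse, whereas the top place went to Rpp25l in all 3 laboratory mice and to Pop5 in all 3 wild mice. Between 8.59 and 20.7 times as much FPKM was assigned to the highest as to the lowest of the 9 genes in a mouse.

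**Figure D1:**
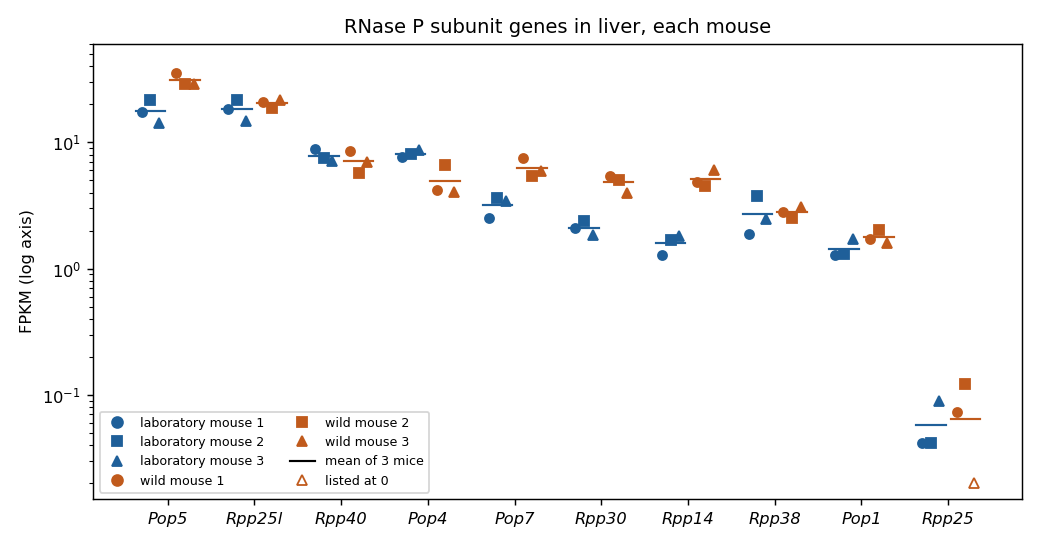
FPKM of the 10 subunit genes in each mouse on a log axis, with laboratory mice in blue and wild mice in orange, and horizontal lines for the mean of 3 mice. Genes are ordered by level from Pop5 to Rpp25; Rpp14, Rpp30, Pop5 and Pop7 lie higher in all wild mice and Pop4 in all laboratory mice, and the open symbol marks Rpp25 in wild mouse 3, listed at 0.

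In the main comparison, limma on zFPKM, none of the 10 genes passed an adjusted p of 0.05, at a background of 14.4% of all 18619 tested genes called (2690 genes, of which 1335 or 7.17% were higher and 1355 or 7.28% lower in laboratory mice). The same count was 5 when limma was run on log2(FPKM + 0.1), where 46.1% of all genes were called, 1524 (8.19%) higher and 7065 (37.9%) lower in laboratory mice. At an unadjusted p under 0.05 on zFPKM, 1 of the 10 genes, Pop4, was counted (limma unadjusted p = 0.0122), beside 25.7% of all tested genes. No gene had groups without overlap on zFPKM, against 28.3% of all tested genes, and 5 had on log2(FPKM + 0.1), against 55.8%. The median difference (laboratory less wild) over the 10 genes was 0.159 in zFPKM beside 0.00500 over all tested genes, and -0.23 in log2(FPKM + 0.1) beside -0.47 over all tested genes. The subunit genes thus had no share of calls above the background on zFPKM and one close to it on log2(FPKM + 0.1), and the individual genes are given below on both scales.

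The calls depended on how the mice were scaled to each other. On log2(FPKM + 1) the same 5 genes were called as on log2(FPKM + 0.1), at a background of 44.3%. With a median of 0 in each mouse, Rpp14 was called lower and Rpp40 and Pop4 higher in laboratory mice (47.4% of all genes called), and with quantile normalization Rpp14 was called lower and Rpp25l, Rpp40 and Pop4 higher (39.1%). Leaving out laboratory mouse 3 and wild mouse 1 together gave these same 4 calls on zFPKM (30.5%), and leaving out laboratory mouse 3 alone gave Pop4 (13.7%). With the mean of the 9 genes other than Rpp25 at 0, Rpp14 and Rpp30 were called lower and Rpp40 and Pop4 higher (42.5%). The differences of these 9 genes average 0 in that fit by construction, so the presence of both directions was fixed in advance. Groups without overlap were seen for 5 genes on log2(FPKM + 1) (55.8% of all genes), 6 with a median of 0 (58.3%), 6 with the mean of the 9 genes at 0 (54.8%), 6 with quantile normalization (52.9%), 6 without the pair of mice (69.7%) and 5 without laboratory mouse 3 (49.4%). Rpp14 was lower and Pop4 and Rpp40 were higher in laboratory mice in every one of the 17 alternative fits, whereas 7 of the 10 genes changed direction in at least 1 of them. Fits that changed only the floor, the filter or the trend left the differences of Rpp14, Pop4 and Rpp40 unchanged. The other fits reuse the same mice, so this agreement is not independent support.

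Pop1 encodes the largest protein of the particle, a scaffold that touches much of the RNA. The gene lies on chromosome 15 (34495311 to 34530653). Laboratory mice 1 to 3 stood at 1.28, 1.31 and 1.70 FPKM and wild mice 1 to 3 at 1.70, 2.00 and 1.59 FPKM. The groups overlapped, with means of 1.43 ± 0.236 and 1.77 ± 0.214 FPKM (SD, n = 3). The difference was 0.138 in zFPKM (SE 0.293, limma adjusted p = 0.828) and -0.29 in log2(FPKM + 0.1) (SE 0.25, limma adjusted p = 0.39), so no difference was detected on either scale. With a median of 0 in each mouse the difference was 0.45 (SE 0.25, limma adjusted p = 0.164). In that fit every laboratory mouse lay above every wild mouse.

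Pop7, also known as Rpp20, and the proteins Rpp25 and Rpp25l belong to the Alba family of small nucleic acid binding proteins, and Pop7 forms a dimer with Rpp25 on the RNA of the particle. Pop7 lies on chromosome 5 (137501439 to 137502429). Laboratory mice 1 to 3 stood at 2.51, 3.64 and 3.43 FPKM and wild mice 1 to 3 at 7.53, 5.40 and 5.92 FPKM. All wild mice lay above all laboratory mice on this scale, at 1.97 times the laboratory mean. The difference was -0.96 in log2(FPKM + 0.1) (SE 0.23, limma adjusted p = 0.0107). With a median of 0 in each mouse it was -0.22 (limma adjusted p = 0.474) and the groups overlapped. In zFPKM it was -0.100 (SE 0.223, limma adjusted p = 0.836) with overlapping groups.

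The paralogs Rpp25 and Rpp25l were listed at very different levels. Rpp25l (chromosome 4, 41712026 to 41713920) was at 18.5, 21.8 and 14.6 FPKM in laboratory mice 1 to 3 and at 20.8, 18.8 and 21.6 FPKM in wild mice 1 to 3. Rpp25 (chromosome 9, 57504102 to 57505447) stood at 0.0413, 0.0413 and 0.0897 FPKM in the laboratory mice, at 0.0725 FPKM in wild mouse 1 and at 0.121 FPKM in wild mouse 2, and it was listed at 0 in wild mouse 3. In liver the signal of this pair thus came almost wholly from Rpp25l, with 155 to 527 times the FPKM of Rpp25 in the 5 mice where Rpp25 was above 0. The bounds that Cufflinks wrote beside its FPKM correspond, for Rpp25, to about 0.973 reads in laboratory mouse 2, 1.97 in laboratory mouse 3 and wild mouse 1, and 3.91 in wild mouse 2, so its differences between mice are not detectable at this depth. With wild mouse 3 set to the floor of -3, the difference of Rpp25 was 0.368 in zFPKM (SE 0.467, limma adjusted p = 0.688). For Rpp25l the groups overlapped and the difference was 0.180 in zFPKM (SE 0.161, limma adjusted p = 0.538) and -0.17 in log2(FPKM + 0.1) (SE 0.18, limma adjusted p = 0.468). With a median of 0 in each mouse the Rpp25l difference was 0.57 (SE 0.25, limma adjusted p = 0.0897), again with overlap. Without laboratory mouse 3 and wild mouse 1, Rpp25l differed by 0.267 in zFPKM (SE 0.0459, limma adjusted p = 0.0133) and was called higher in laboratory mice.

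The promoters of this pair are shown because the genes encode paralogous proteins and stand so far apart in level. They are taken from RefSeq on GRCm38.p6, 5′ to 3′, from 250 bases before to 50 after the start, and 9 of the 10 subunit genes had a promoter in that table. Capitals mark matches, on either strand, to any of 7 searched motifs: the CCAAT box (CCAAT), the TATA box (TATAAA), the GC box (GGGCGG), the CRE (TGACGTCA), an ETS core (CCGGAAG), a YY1 motif (AAGATGGC) and the E-box (CACGTG). Rpp25 is on the plus strand at chr9:57503852-57504151 and Rpp25l on the minus strand at chr4:41713468-41713767, a window that lies inside the span listed for Rpp25l in the expression tables.
Rpp25: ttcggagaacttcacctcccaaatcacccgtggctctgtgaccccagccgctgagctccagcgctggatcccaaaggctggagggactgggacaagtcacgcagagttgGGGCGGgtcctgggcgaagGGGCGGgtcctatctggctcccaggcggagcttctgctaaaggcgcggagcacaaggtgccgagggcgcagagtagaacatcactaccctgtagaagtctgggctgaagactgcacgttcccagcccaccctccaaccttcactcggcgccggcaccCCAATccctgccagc
Rpp25l: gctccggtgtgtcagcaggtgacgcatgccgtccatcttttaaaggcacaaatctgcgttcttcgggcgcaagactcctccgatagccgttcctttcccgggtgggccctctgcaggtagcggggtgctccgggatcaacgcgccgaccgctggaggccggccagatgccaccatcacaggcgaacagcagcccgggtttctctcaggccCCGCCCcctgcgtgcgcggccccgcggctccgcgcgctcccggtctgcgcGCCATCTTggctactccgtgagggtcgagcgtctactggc
Both promoters hold the GC box, present in 35.7% of 32851 promoters of the table and in 6 of the 9 subunit genes. Rpp25 also holds a CCAAT box (37.4% of all promoters) and Rpp25l a YY1 motif (2.75%), and no match overlaps another. There were 17 CpG dinucleotides in the Rpp25 window and 33 in the Rpp25l window, beside a median of 7 over all promoters, and the 9 subunit genes ranged from 11 to 33. No TATA box or ETS core was matched in any of the 9 windows.

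Pop5, Rpp14, Rpp30 and Rpp40 form one module of the assembled particle, in which Pop5 and Rpp30 have counterparts in archaeal RNase P. All except Rpp40 were higher in wild mice on the FPKM scale. Pop5 (chromosome 5, 115235588 to 115240972) was at 17.3, 21.4 and 14.2 FPKM in laboratory mice 1 to 3 and at 35.2, 28.7 and 29.2 FPKM in wild mice 1 to 3. The groups did not overlap, and the wild mean was 1.76 times the laboratory mean, with a difference of -0.82 in log2(FPKM + 0.1) (SE 0.18, limma adjusted p = 0.00866). With a median of 0 in each mouse it was -0.08 (limma adjusted p = 0.816) and the groups overlapped. In zFPKM the difference was -0.0479 (SE 0.156, limma adjusted p = 0.892), close to 0.

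Rpp30, a subunit with a TIM-barrel fold that binds Pop5, lies on chromosome 19 (36083689 to 36104773). Laboratory mice 1 to 3 stood at 2.08, 2.39 and 1.83 FPKM and wild mice 1 to 3 at 5.39, 5.07 and 3.97 FPKM. All wild mice were higher, at 2.29 times the laboratory mean, and the difference was -1.15 in log2(FPKM + 0.1) (SE 0.22, limma adjusted p = 0.00409). With a median of 0 in each mouse it was -0.41 (limma adjusted p = 0.254) and the groups overlapped. In zFPKM it was -0.179 (SE 0.244, limma adjusted p = 0.713).

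Rpp14 (chromosome 14, 8080313 to 8091846), which encodes a small protein with a fold like that of Pop5, showed the largest ratio between groups of the 10 genes. Laboratory mice 1 to 3 stood at 1.29, 1.68 and 1.82 FPKM and wild mice 1 to 3 at 4.83, 4.48 and 6.02 FPKM, that is 1.60 ± 0.278 and 5.11 ± 0.809 (SD, n = 3). Every wild mouse was above every laboratory mouse, and the ratio of the means was 3.20. The bounds that Cufflinks gave also stayed apart, with 1.41 to 2.24 FPKM in laboratory mouse 3 and 3.92 to 5.03 FPKM in wild mouse 2, the nearest mice with bounds. A two-sided exact permutation test of the means gave p = 0.1, the smallest possible with 3 mice against 3, as it did for Rpp30, Pop4, Pop5 and Pop7. The difference was -1.62 in log2(FPKM + 0.1) (SE 0.23, limma adjusted p = 0.00114), -0.88 with a median of 0 in each mouse (SE 0.20, limma adjusted p = 0.00973), and -0.340 in zFPKM (SE 0.251, limma adjusted p = 0.425). Leaving out laboratory mouse 3 and wild mouse 1 together left a zFPKM difference of -0.307 (SE 0.0723, limma adjusted p = 0.0310). The mitochondrial fatty acid synthesis gene Htd2, whose protein is encoded on the same transcript as Rpp14, is listed on the identical span at 2.83e-05 to 0.000671 FPKM, so the signal of that span is listed almost wholly under Rpp14 and the 2 names cannot be told apart.

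Rpp40 (chromosome 13, 35895104 to 35911565) differed from the other genes of this module. Laboratory mice 1 to 3 stood at 8.89, 7.49 and 7.11 FPKM and wild mice 1 to 3 at 8.60, 5.73 and 6.99 FPKM, with overlapping groups. The difference was 0.288 in zFPKM (SE 0.197, limma adjusted p = 0.381) and 0.15 in log2(FPKM + 0.1) (SE 0.20, limma adjusted p = 0.576). With a median of 0 in each mouse it was 0.89 (SE 0.28, limma adjusted p = 0.0301). Rpp40 was higher in laboratory mice in all 17 alternative fits and was called in 4 of them.

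Pop4, also known as Rpp29, and Rpp38 contact the RNA in another module of the particle, Pop4 being a further subunit with an archaeal counterpart and Rpp38 a member of the L7Ae family that binds kink-turns in RNA. Pop4 (chromosome 7, 38262812 to 38271393) was at 7.59, 8.15 and 8.69 FPKM in laboratory mice 1 to 3 and at 4.17, 6.58 and 4.04 FPKM in wild mice 1 to 3. It was the only one of the 10 genes with every laboratory mouse above every wild mouse, at 8.14 ± 0.549 and 4.93 ± 1.43 FPKM (SD, n = 3), a ratio of 1.65. Wild mouse 2 was the closest to the laboratory mice, and its Cufflinks bounds of 5.59 to 7.58 FPKM met those of laboratory mouse 2, 6.86 to 9.43 FPKM. The difference was 0.515 in zFPKM (SE 0.205, limma adjusted p = 0.0736) and 0.75 in log2(FPKM + 0.1) (SE 0.22, limma adjusted p = 0.0289), and 1.49 with a median of 0 in each mouse (SE 0.25, limma adjusted p = 0.0026). On zFPKM, wild mouse 2 at 0.451 lay above laboratory mouse 3 at 0.399, and without laboratory mouse 3 the difference was 0.634 (SE 0.183, limma adjusted p = 0.0377). Over the 17 alternative fits the adjusted p ran from 0.00183 to 0.45.

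Rpp38 (chromosome 2, 3326548 to 3332986) was at 1.88, 3.78 and 2.47 FPKM in laboratory mice 1 to 3 and at 2.79, 2.51 and 3.08 FPKM in wild mice 1 to 3. Laboratory mouse 2 was the highest and laboratory mouse 1 the lowest of all 6, so the groups overlapped fully. The difference was 0.201 in zFPKM (SE 0.254, limma adjusted p = 0.688) and -0.10 in log2(FPKM + 0.1) (SE 0.29, limma adjusted p = 0.811). With a median of 0 in each mouse the difference was 0.64 (SE 0.27, limma adjusted p = 0.0814). In that fit every laboratory mouse lay above every wild mouse. The span of Rpp38 shares 2330 of its 6439 bases with Nmt2, listed at 0.266 to 2.01 FPKM, and 173 bases with Acbd7, and whether strand was used in assigning fragments is not given in the sources used here.

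**Figure D2:**
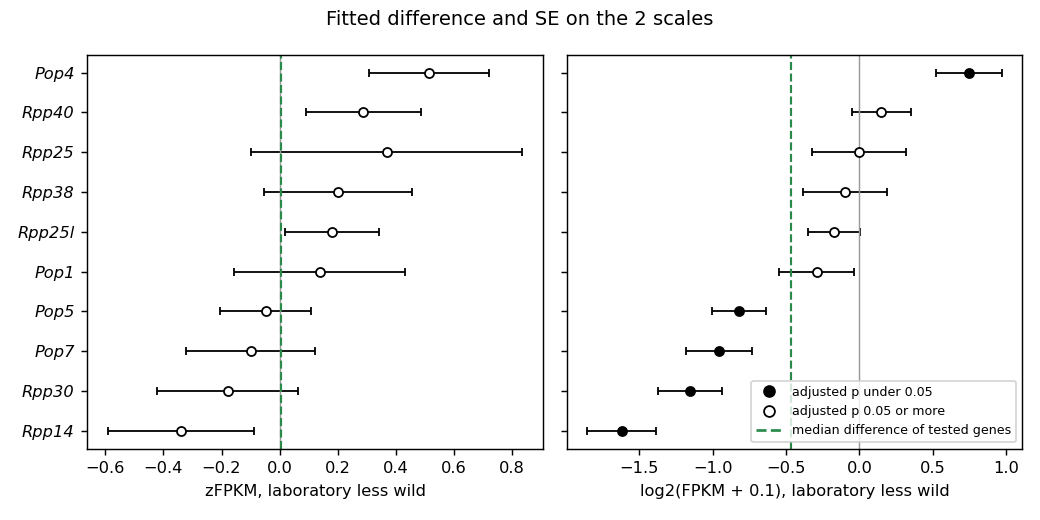
Fitted difference between laboratory and wild mice (points) with its SE (bars) for each gene, in zFPKM on the left and log2(FPKM + 0.1) on the right, and the median difference over all tested genes as a dashed line. Filled points passed an adjusted p of 0.05 in limma: none on the left, and Pop4, Pop5, Pop7, Rpp30 and Rpp14 on the right, where Pop4 is the only one of them to the right of 0.

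The promoters of Rpp14 and Pop4 are printed because these genes lie at opposite ends of the comparison on both scales. They come from the same table, with the same motifs in capitals. Rpp14 is on the plus strand at chr14:8080063-8080362 and Pop4 on the minus strand at chr7:38271299-38271598.
Rpp14: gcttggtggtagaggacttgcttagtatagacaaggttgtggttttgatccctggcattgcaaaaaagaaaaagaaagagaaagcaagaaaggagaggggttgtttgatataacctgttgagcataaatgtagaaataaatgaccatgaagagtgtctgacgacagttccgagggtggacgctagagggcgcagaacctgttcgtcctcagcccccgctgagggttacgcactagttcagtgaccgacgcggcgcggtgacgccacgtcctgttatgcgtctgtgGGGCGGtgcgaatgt
Pop4: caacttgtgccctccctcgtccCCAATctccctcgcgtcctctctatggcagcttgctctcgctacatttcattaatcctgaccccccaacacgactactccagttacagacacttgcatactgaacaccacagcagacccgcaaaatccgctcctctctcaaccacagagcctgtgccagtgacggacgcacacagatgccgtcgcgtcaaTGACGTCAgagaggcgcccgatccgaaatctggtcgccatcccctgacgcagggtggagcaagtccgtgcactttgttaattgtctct
The Rpp14 window holds a GC box and no other searched motif. The Pop4 window holds a CCAAT box and a CRE, and it was the only one of the 9 subunit promoters with the CRE, found in 1.79% of all promoters. The 2 windows held 17 and 19 CpG dinucleotides, with a GC content of 50.7% and 56.0%. These matches are letters in a window and were not tied to the measured levels.

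Ratios of FPKM within a mouse do not depend on a factor shared by all genes of that mouse, and they were used to describe the balance of the subunits. Differences between genes can change in zFPKM, which is scaled by the SD of each mouse, and with quantile normalization. The overlaps below therefore hold for FPKM only. Of the 36 pairs among the 9 genes other than Rpp25, 23 (63.9%) had ratios that did not overlap between the groups, near the 53.7% of all pairs that 15204 genes with a value in every mouse can form. The pairs share genes and are not independent. The widest was Pop4 to Rpp14, with ratios of 5.90, 4.84 and 4.76 for laboratory mice 1 to 3 against 0.865, 1.47 and 0.672 for wild mice 1 to 3. Pop4 was thus the higher of the 2 in every laboratory mouse and the lower in wild mice 1 and 3, and the ratio differed 5.42-fold in geometric mean (two-sided exact permutation p = 0.1, adjusted p = 0.157 over 36 pairs). Rpp14 was relatively lower in laboratory mice in all 7 of its 8 pairs that did not overlap, and Pop4 relatively higher in all 6 of its 8. Rpp30 was relatively lower in all 6 of its pairs without overlap, and Rpp38 and Rpp40 relatively higher in all 4 of theirs.

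Among genes whose proteins touch in the particle, some ratios stood apart between the groups and others overlapped. Pop5 to Rpp30 was 8.31, 8.97 and 7.77 for laboratory mice against 6.53, 5.66 and 7.35 for wild mice, a small difference of 1.29-fold without overlap. Rpp40 to Pop5 was 0.513, 0.349 and 0.499 against 0.244, 0.200 and 0.240, which did not overlap and differed 1.97-fold. For the Alba pair, Rpp25l to Pop7 was 7.37, 5.98 and 4.27 against 2.76, 3.48 and 3.65, a difference of 1.75-fold without overlap. Pop4 to Rpp38 was 4.05, 2.16 and 3.52 against 1.49, 2.62 and 1.31, and here the groups overlapped. Rpp30 to Rpp14, both lower in laboratory mice on the FPKM scale, was 1.62, 1.42 and 1.004 against 1.12, 1.13 and 0.659, with overlap. Each of these pairs had an adjusted exact permutation p of 0.157 or more over the 36 pairs.

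**Figure D3:**
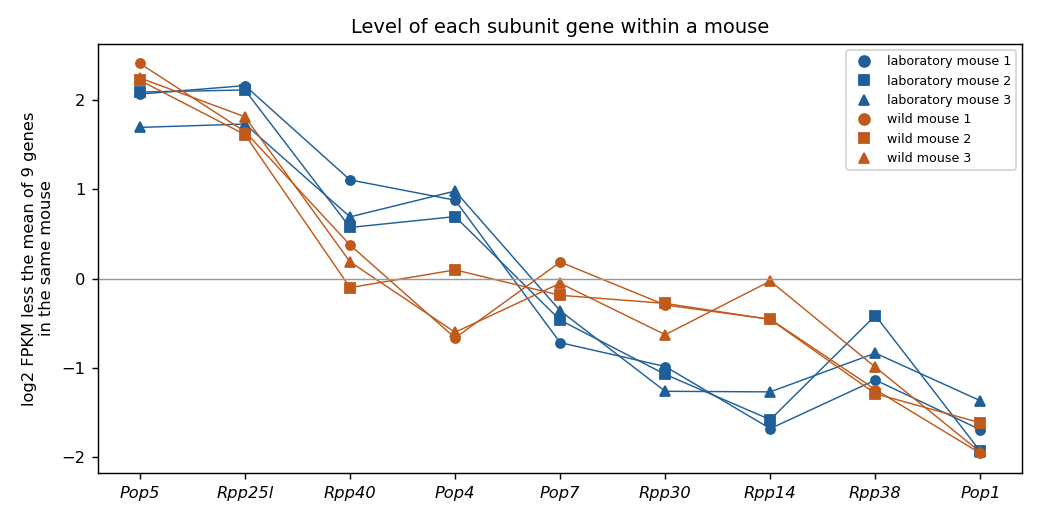
Log2 FPKM of each of 9 subunit genes less the mean of the 9 in the same mouse, with one line per mouse, laboratory mice in blue and wild mice in orange. The blue lines run above the orange ones at Rpp40 and Pop4 and below them at Pop5, Pop7, Rpp30 and Rpp14.

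**Figure D4:**
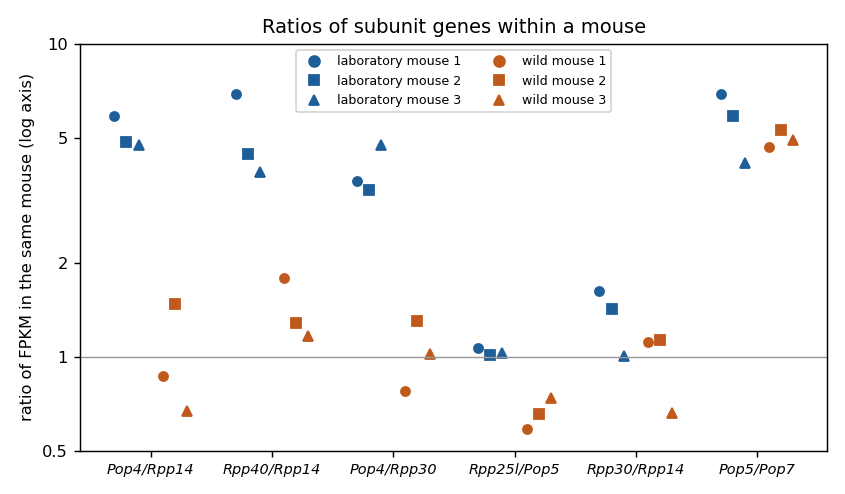
Ratio of FPKM of 2 subunit genes in the same mouse, on a log axis, for 6 pairs, with 1 point per mouse. Pop4 to Rpp14, Rpp40 to Rpp14, Pop4 to Rpp30 and Rpp25l to Pop5 are higher in every laboratory mouse, whereas Rpp30 to Rpp14 and Pop5 to Pop7 overlap.

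With the mean of the 9 genes set to 0 in each mouse, Pop4 was at 0.85 ± 0.15 in laboratory mice and -0.39 ± 0.42 in wild mice (log2, SD, n = 3), and Rpp14 at -1.51 ± 0.21 and -0.31 ± 0.25. The summed FPKM of the 9 genes was 61.3, 71.7 and 55.9 for laboratory mice 1 to 3 against 91.0, 79.3 and 82.4 for wild mice 1 to 3. All wild mice were higher in this sum, to which Pop5 and Rpp25l contributed most. The tested genes as a whole also stood higher in wild mice, with a median difference (laboratory less wild) of -0.47 in log2(FPKM + 0.1). The part of that shift in the sum was not tested. In bulk tissue, fewer cells of a type and less RNA per cell cannot be told apart, so these levels are levels of the whole liver sample.

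The RNA partners of the proteins rested on fewer reads. Libraries were made from polyadenylated RNA, and neither Rpph1 nor Rmrp is a polyadenylated transcript in its mature form. Rpph1 (chromosome 14, 50807447 to 50807771), the catalytic RNA, was at 15.5, 8.94 and 13.1 FPKM in laboratory mice 1 to 3 and at 2.73, 3.13 and 3.96 FPKM in wild mice 1 to 3. Its groups did not overlap. It was called higher in laboratory mice on zFPKM (difference 0.912, SE 0.205, limma adjusted p = 0.000213), on log2(FPKM + 0.1) (1.88, SE 0.25, limma adjusted p = 0.000837) and with a median of 0 in each mouse (2.62, SE 0.28, limma adjusted p = 0.000475). In the 5 mice with bounds it rested on about 7.82 to 31.0 reads. The call of Rpph1 was lost without the variance trend (limma adjusted p = 0.0753) and without the filter (0.45). Rmrp had 2.76, 1.66 and 8.98 FPKM against 2.42, 2.43 and 1.41, with overlapping groups and 2.79 to 14.9 reads (zFPKM difference 0.540, SE 0.253, limma adjusted p = 0.148). With a median of 0 in each mouse, Rmrp was called higher in laboratory mice (1.49, SE 0.53, limma adjusted p = 0.0491), beside 47.4% of all tested genes called. Its groups did not overlap in that fit. Nepro, a nucleolar protein, had 1.42, 1.69 and 1.81 FPKM against 2.32, 2.02 and 2.92 (zFPKM difference 0.0491, SE 0.276, limma adjusted p = 0.939). With a median of 0 in each mouse the Nepro difference was 0.22 (SE 0.23, limma adjusted p = 0.446).

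Mitochondria use a separate RNase P made only of proteins, in which Trmt10c and Hsd17b10 form a methyltransferase and Prorp carries the nuclease. None of these 3 genes was called on zFPKM. On log2(FPKM + 0.1), Trmt10c and Prorp were called lower in laboratory mice, beside 37.9% of all tested genes called lower. With a median of 0 in each mouse none of the 3 was called. The differences were then -0.50 for Trmt10c (limma adjusted p = 0.0911), -0.30 for Prorp (0.289) and 0.56 for Hsd17b10 (0.131). Trmt10c was at 2.85, 2.28 and 3.49 FPKM in laboratory mice 1 to 3 and at 5.62, 7.01 and 8.01 FPKM in wild mice 1 to 3 (-1.24 in log2, SE 0.23, limma adjusted p = 0.00388). Prorp had 1.59, 1.97 and 1.77 against 3.71, 3.38 and 4.19 FPKM (-1.04 in log2, SE 0.21, limma adjusted p = 0.00567). Hsd17b10, an abundant enzyme with further roles in mitochondrial metabolism, had 156, 172 and 120.3 against 179.9, 166 and 159 FPKM, with overlap (-0.19 in log2, SE 0.17, limma adjusted p = 0.408).

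The other genes of tRNA maturation are given by list, with counts on zFPKM read beside the 14.4% of all tested genes called. Among 5 genes of tRNA 3′ end processing and CCA addition none was called, and their median difference was -0.349 beside 0.00500 over all genes. Ssb, the La protein that binds the 3′ ends of new transcripts, was the highest of them, with 3.99, 6.28 and 7.07 FPKM for laboratory mice against 21.2, 16.9 and 17.9 FPKM for wild mice (zFPKM difference -0.349, SE 0.183, limma adjusted p = 0.212). Elac1 was the lowest (-0.443, SE 0.357, limma adjusted p = 0.478). Of 10 tRNA splicing genes, 2 were called, both lower in laboratory mice: Rtcb, the ligase that joins cut tRNA exons, at 3.79, 5.43 and 4.46 against 35.5, 35.8 and 31.3 FPKM (-0.769, SE 0.176, limma adjusted p = 0.000301), and its partner Ddx1 at 4.81, 7.18 and 6.48 against 34.1, 28.8 and 25.9 FPKM (-0.544, SE 0.173, limma adjusted p = 0.0167). Both calls were lost without the variance trend (limma adjusted p = 0.0969 and 0.181) and without the filter (0.447 and 0.45). Ddx1 was also lost without wild mouse 2 (0.145) or wild mouse 3 (0.121). With sex as a covariate, where the wild side is wild mouse 1 alone, both calls were lost too (differences -0.643 and -0.467). Rtraf, a further component of that ligase complex and the highest of the list, had a difference of -0.251 (SE 0.151, limma adjusted p = 0.299).

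Of 23 tRNA modification genes, 1 was called, Wdr4, a subunit of the tRNA m7G methyltransferase, higher in laboratory mice at 2.82, 3.83 and 9.09 against 1.57, 0.878 and 1.71 FPKM (0.879, SE 0.258, limma adjusted p = 0.00763). Laboratory mouse 3 was well above the other laboratory mice for this gene, and the call was lost without laboratory mouse 1 (limma adjusted p = 0.059) or laboratory mouse 2 (0.0772) and without the filter (0.188). Trmt112, an activator of several methyltransferases and the highest of the list, had a difference of 0.169 (SE 0.148, limma adjusted p = 0.525), and Adat1, a tRNA deaminase and the lowest, one of -0.0364 (SE 0.387, limma adjusted p = 0.971). None of 20 genes of RNA polymerase III and its factors, which transcribe tRNA genes and Rpph1, was called, from Maf1, a repressor of that polymerase (0.0822, SE 0.186, limma adjusted p = 0.84), to Polr3f (-0.123, SE 0.327, limma adjusted p = 0.866). Of 17 genes of snoRNPs and pre-rRNA processing, 1 was called, Nop56, a core protein of box C/D snoRNPs, higher in laboratory mice at 12.7, 9.76 and 12.3 against 8.18, 4.81 and 5.31 FPKM (0.573, SE 0.192, limma adjusted p = 0.0247). The Nop56 call was lost without the variance trend (limma adjusted p = 0.152), without the filter (0.409) and when any mouse other than laboratory mouse 3 was left out (0.0569 to 0.258). It was also lost with sex as a covariate, where the wild side is wild mouse 1 alone (difference 0.62). The highest of them, Npm1, differed by 0.138 (SE 0.137, limma adjusted p = 0.585) and the lowest, Utp20, by -0.701 (SE 0.364, limma adjusted p = 0.205). On log2(FPKM + 0.1) the calls in laboratory mice were 5 of 5 lower for 3′ end processing, 5 of 10 lower for splicing, 9 lower and 1 higher of 23 for modification, 13 of 20 lower for RNA polymerase III and 12 lower and 1 higher of 17 for snoRNPs, beside 37.9% lower and 8.19% higher over all tested genes. With a median of 0 in each mouse, 3 of 5 were lower for 3′ end processing, and 4 were lower and 2 higher of 10 for splicing. Modification had 2 lower and 4 higher of 23, RNA polymerase III 6 lower and 2 higher of 20, and snoRNPs 5 lower and 1 higher of 17. In that fit 47.4% of all tested genes were called in either direction.

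The profile of the 10 genes over the mice, taken as their mean zFPKM, ran 0.286, 0.277 and -0.215 over laboratory mice 1 to 3 and -0.162, 0.238 and -0.0347 over wild mice 1 to 3. It was lowest in laboratory mouse 3 and wild mouse 1, the mice with the highest modes. Among 6851 candidate genes with a mean zFPKM above 0, the most similar by Pearson's r over the 6 mice were Dusp28, Fbxw4, Ppih, Bccip and Wdr45, with r between 0.993 and 0.999. As many as 219 candidates had r above 0.95, and all values of a mouse share its mode and SD, so the likeness is a description only.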

How the data were processed

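The deposited FPKM were made by the authors, who aligned single reads of 100 bases to the masked genome with kalign and ran the Tuxedo pipeline (Cufflinks). The deposited score zFPKM was made by the authors with the R package zFPKM. No counts were used, so limma stood in for the count-based test of the study's methods. The members and gene lists were chosen with earlier results of these data known. Names that occur once in each of the tables were kept (47256), less 24 with a failed estimate. The filter asked for a zFPKM over -3 in 3 or more of the 6 mice, values under -3 were raised to -3, and the test was limma 3.58.1 in R 4.3.3 (lmFit, eBayes with trend, Benjamini-Hochberg adjustment, two-sided). On simulated data for this comparison, 68% of 200 genes shifted by 2 in zFPKM were recovered among 18619, and 2.86% of the 140 calls were false. That shift is larger than the difference of any member, of which Pop4 had the largest at 0.515. The simulated noise was independent, without effects shared by all genes of a mouse. The recovery therefore does not tell how often differences as small as those of the members would be called. Python 3.11.15 (numpy 2.4.6, scipy 1.17.1 and pandas 2.3.3) served for ratios, permutations and motifs. Reads behind an FPKM were derived from Cufflinks' bounds, given for 5 mice, as the square of 2 FPKM over the distance to the upper bound. They were about 31.2 to 509.8 for the members other than Rpp25 and cover counting error only; relative depth was 0.922 to 1.36 with laboratory mouse 2 as reference. The text names all 10 members, the other particle and mitochondrial RNase P genes in full, and of other lists the highest, the lowest and the called genes, of which 1 is not reported here. Alternatives were other scales, normalizations, floors, filters, no trend, sex as a covariate and mice left out; centring on 9 members was added after seeing the data. The limma p-values rest on the spread between the 3 mice of a group, with the variance of each gene moderated over all tested genes.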

Additional observations from a re-analysis of the deposited data

How the results depend on the processing

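Pop4 and Rpp40 stayed higher and Rpp14 lower in laboratory mice in all 17 alternatives run, and Rpph1 stayed higher but was not called without the trend or without the filter. Changing only the floor, the filter or the trend could not alter the direction of these genes. The number of genes called, 2690, became 8589 on log2(FPKM + 0.1), 8242 on log2(FPKM + 1), 7282 with quantile normalization, 8817 with a median of 0, 7907 with the mean of 9 members at 0, 5676 without laboratory mouse 3 and wild mouse 1, 1374 with sex as a covariate, 795 without the trend and 23 without the filter, where far more genes were tested, and 1420 to 2556 when 1 mouse was left out. In the same order, the members called, 0 on zFPKM, became 5, 5, 4, 3, 4 and 4 in the first 6 of these, stayed 0 with sex, without the trend and without the filter, and were 0 to 1 with 1 mouse left out (Pop4 without laboratory mouse 3). The members without overlap became 5, 5, 6, 6, 6 and 6, and 0 to 5, the 5 again without laboratory mouse 3. The median difference over the members, 0.159, became -0.231 on log2(FPKM + 0.1), beside -0.468 over all tested genes, and -0.175 on log2(FPKM + 1). It was 0.510 with a median of 0, beside 0.274 over all tested genes. With sex as a covariate it was 0.364, and with 1 mouse left out it was 0.0407 to 0.316. A floor of -5 and a mean zFPKM above -1 left all 4 of these results within the spread or within 1.5 times. The cause of these moves was not tested, except that zFPKM and log2 FPKM differ by each mouse's mode and SD.

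Single genes changed sign as follows. On log2(FPKM + 0.1) and log2(FPKM + 1) the differences were -0.00331 and -0.0084 for Rpp25, -0.171 and -0.163 for Rpp25l, -0.0974 and -0.0643 for Rpp38, -0.291 and -0.188 for Pop1, -0.522 and -0.366 for Nepro, -0.186 and -0.184 for Hsd17b10, -0.229 and -0.223 for Trmt112, -0.496 and -0.449 for Maf1, and -0.333 and -0.326 for Npm1. With sex as a covariate, where the wild side is wild mouse 1 alone, they were 0.036 for Pop5, 0.0129 for Pop7, 0.119 for Trmt10c, 0.0987 for Prorp, 0.335 for Adat1 and 0.231 for Polr3f. Pop5 was 0.00704 with quantile normalization and 0.0748 without laboratory mouse 3 and wild mouse 1, Adat1 was 0.0734 with a median of 0, and Nepro and Maf1 were -0.0538 and -0.0274 with 9 members at 0. With 1 mouse left out, the ranges that crossed 0 were -0.00873 to 0.794 for Rpp25, -0.297 to 0.0415 for Rpp30, -0.136 to 0.117 for Pop5, -0.195 to 0.0484 for Pop7, -0.0835 to 0.216 for Nepro, -0.256 to 0.0536 for Prorp, -0.222 to 0.144 for Adat1, -0.0191 to 0.139 for Maf1 and -0.3 to 0.0598 for Polr3f. Of the 169 values of the 10 members, 127 kept direction and side of the threshold, 26 newly passed it and 16 changed sign. Among 340 values of the 20 other named genes, 21 lost a call: without the filter Rpph1, Rtcb, Ddx1, Wdr4 and Nop56, without the trend those other than Wdr4, with sex Rtcb, Ddx1 and Nop56, and the rest with 1 mouse left out. No paired analysis was possible because the labels carry no replicate numbers and each mouse is a separate animal. Depth limits Rpp25, Rmrp and Rpph1, which rest on few reads, and the 3 mice a group limit every test.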
